A study of Mus musculus with 6 samples.

Results

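The small RNA clusters of mouse chromosome 17 were followed in spermatocytes at pachytene, a stage of the prolonged first prophase of meiosis. They are all the clusters that any of the 4 deposited small RNA tables places on this chromosome, 254 of 4944 in all, and each has a value in at least 1 library. The chromosome was chosen by measured values: the abundance of the cluster at mm9 chr17:27386801-27518200, the most abundant of the chromosome, and the high values of piC_1397 and piC_2849 in Alkbh1-/-. The values of these 3 clusters are therefore given as a description, and where a count of calls includes them nothing is read from it.

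The libraries compared were 1 from Alkbh1-/- mice, 1 from TzfpGTi/GTi mice and 2 from wild type (WT) mice, all from testes and all of RNA under 200 nt. In the Alkbh1-/- line exon 6 of the AlkB dioxygenase gene Alkbh1 was deleted, and heterozygotes were backcrossed onto C57/BL6. TzfpGTi/GTi mice are homozygous for a gene trap, made from an embryonic stem cell clone, whose splice acceptor lies upstream of exon 1 of Tzfp, a BTB zinc finger gene. No label gives the strain of the WT or TzfpGTi/GTi animals, the age of any animal, the number of animals behind a library, or whether the WT libraries came from separate animals, so the spread between them may be technical. The cell type of the labels could not be checked here, because small RNA clusters include no marker genes.

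Pachytene piRNAs are small RNAs bound by the PIWI proteins MIWI and MILI. They are cut from long transcripts of a limited set of genomic regions, called clusters, which are strongly transcribed at this stage of meiosis; many clusters are transcribed outward in both directions from a shared promoter. Male mice without MIWI are sterile, and their spermatids do not mature. In these tables a cluster has either a plain number or a name beginning piC, and the sources used here do not say what separates the classes. A value is an estimated read count for the whole cluster, without strand or read length, so the values do not show which reads are piRNAs.

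Over all chromosomes the cluster reads summed to 7305946 (Alkbh1-/-), 14760759 (TzfpGTi/GTi), 10193768 (WT replicate 1) and 15319387 (WT replicate 2). Levels are given below in scaled RPM, reads per 1000000 cluster reads of the library after TMM scaling, which assumes that most clusters do not differ between libraries. In bulk RNA such as this, fewer cells of a type and less RNA per cell cannot be told apart. The deposited tables of Alkbh1-/- and WT replicate 1 are named by one scheme, and those of TzfpGTi/GTi and WT replicate 2 by another. No label calls this a batch, so each mutant is also set against each WT library.

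Of the 254 clusters, 148 were piC clusters and 106 numbered. Many were nearly silent: 125 had fewer than 40 reads summed over the 4 libraries and were not tested. These 125 held between 0.0166% (WT replicate 2) and 0.0285% (WT replicate 1) of the chromosome's cluster reads. The classes differed in this, as 116 of the 148 piC clusters (78.4%) but 13 of the 106 numbered ones (12.3%) reached 40 reads. At the edge of this floor piC_1423 had a sum of exactly 40 and piC_2875 of 38.4. Every library listed between 216 and 224 of the clusters, 186 were listed in all 4, and 22 in a single library. Median length was 27815 bp for piC clusters (252 to 144962) and 30700 bp for numbered clusters (6200 to 131400).

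Many values are not whole numbers, and how reads were divided between positions is not stated in the labels. Of the 254 clusters, 25 had whole values in every library that listed them, within 0.01 of a read, 223 had a divided value, and 6 were too high for the decimals to be read. In all, 44 clusters shared bases with another cluster on the chromosome. Reads in shared bases enter both clusters. A count with overlaps removed leaves out the 23 clusters that overlap one with at least as many reads, which leaves 112 of the 129 tested.

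Nearly all small RNA of chromosome 17 came from a few numbered clusters. The most abundant cluster (mm9 chr17:27386801-27518200, 131400 bp) had 120140 scaled RPM in Alkbh1-/-, 90220.3 in TzfpGTi/GTi, 80903 in WT replicate 1 and 88493 in WT replicate 2. It alone held 79.5% of the chromosome's reads in Alkbh1-/- (95% Wilson interval 79.4 to 79.6), 76.8% in TzfpGTi/GTi, 75.1% in WT replicate 1 and 75.1% in WT replicate 2. The Alkbh1-/- library was the highest and lay outside the WT range, while TzfpGTi/GTi lay just above WT replicate 2. The reads carry no molecular identifiers, so PCR copies of 1 molecule are counted separately, and intervals on shares and ratios hold counting error alone.

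Cluster 2303 (chr17:66523601-66595400, 71800 bp) came second, at 20725 scaled RPM in Alkbh1-/-, 21667 in TzfpGTi/GTi, 21754 in WT replicate 1 and 23654 in WT replicate 2. Both mutants lay below both WT libraries, but by less than the WT libraries differed from each other. Its left neighbour 2302 (chr17:66483101-66522900) ends 700 bp before it starts and had 1757 in Alkbh1-/-, 1670.2 in TzfpGTi/GTi, 1483 in WT replicate 1 and 1684 in WT replicate 2. Per length the pair were far apart: 2303 had 289 scaled RPM per kb in Alkbh1-/-, 302 in TzfpGTi/GTi, 303 in WT replicate 1 and 329 in WT replicate 2, against 37.3 to 44.1 for 2302.

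The short cluster 2275 (chr17:49246601-49257400, 10800 bp) was dense for its size. It had 184 scaled RPM per kb in Alkbh1-/-, 129 in TzfpGTi/GTi, 111 in WT replicate 1 and 152 in WT replicate 2. Only the most abundant cluster, at 914, 687, 616 and 673 in the same order, and 2303 were denser in all 4 libraries. Cluster 2244 (chr17:22649301-22671700) had 392 scaled RPM in Alkbh1-/-, 564 in TzfpGTi/GTi, 486 in WT replicate 1 and 648 in WT replicate 2. It starts 2700 bp after 2243, which had 2.89 in Alkbh1-/-, 7.10 in TzfpGTi/GTi, 7.64 in WT replicate 1 and 6.78 in WT replicate 2. Neighbouring numbered clusters could thus differ by a wide margin in level.

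**Figure D1:**
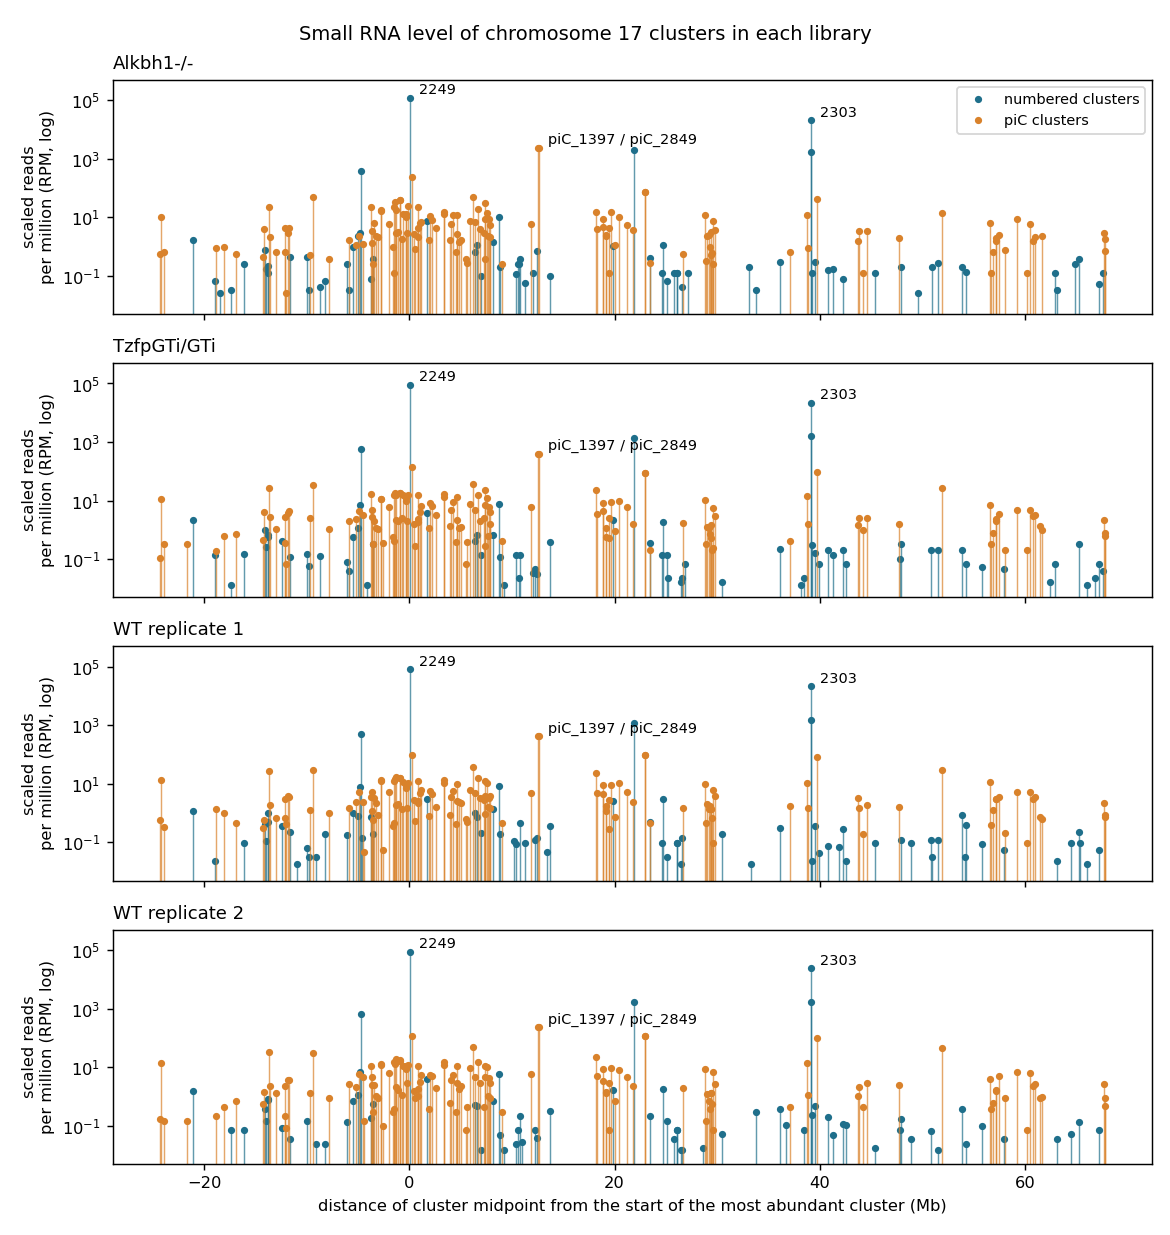
Scaled RPM (log axis) of every chromosome 17 cluster with reads, by distance of its midpoint from the start of the most abundant cluster (Mb), with 1 panel per library and clusters without reads left out. Numbered clusters reach both the highest levels (the most abundant cluster and 2303) and the lowest, while piC clusters fill the range between, densest around the most abundant cluster.

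The other clusters among the 10 with most WT reads were piC clusters, in overlapping pairs or alone. Clusters piC_2861 (chr17:50367102-50392452) and piC_1402 within it shared most of their reads, with 72.9 and 71.8 scaled RPM in Alkbh1-/-, 89.3 and 88.6 in TzfpGTi/GTi, 100.2 and 99.5 in WT replicate 1, and 117 and 116 in WT replicate 2. The cluster next to the most abundant one on its right, piC_2825 (chr17:27650356-27714617), lies 132155 bp away. It had 236 scaled RPM in Alkbh1-/-, 146 in TzfpGTi/GTi, 95.7 in WT replicate 1 and 115 in WT replicate 2, so that both mutants lay above both WT libraries. On the left the nearest is piC_2823 (chr17:27166056-27259610), named after its values were seen, which ends 127190 bp before the most abundant cluster. It had 24.6 scaled RPM in Alkbh1-/-, 14.9 in TzfpGTi/GTi, 10.5 in WT replicate 1 and 11.7 in WT replicate 2, again with both mutants above both WT libraries. The smaller piC_1372 lies within it and had 2.98 in Alkbh1-/-, 2.08 in TzfpGTi/GTi, 1.53 in WT replicate 1 and 2.79 in WT replicate 2.

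**Figure D2:**
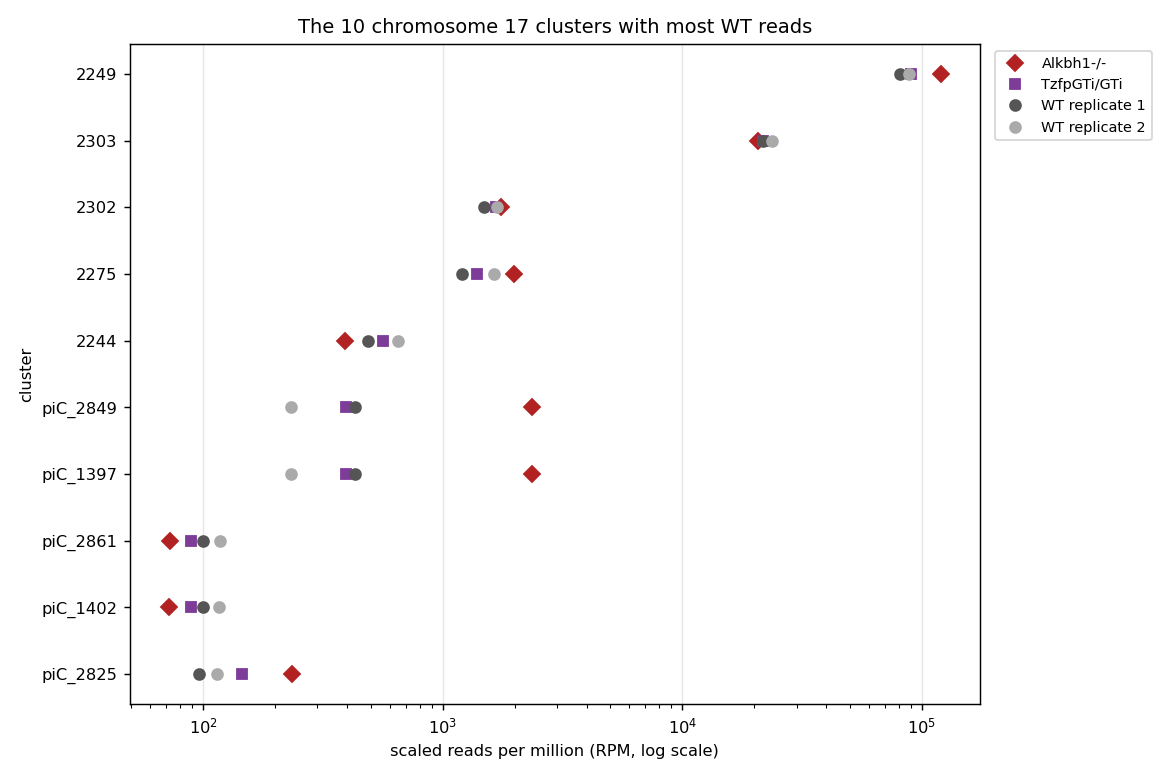
Scaled RPM (log axis) of the 10 chromosome 17 clusters with most WT reads, with 1 point per library, the most abundant cluster in the top row under its deposited number, and no error bars because each mutant has 1 library. Points of the 4 libraries lie close together for 2303 and 2302; the Alkbh1-/- point stands clear on the right for piC_1397 and piC_2849 (2368 against 233 to 431 in WT).

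Chromosome 17 as a whole held 16.0% of all cluster reads in Alkbh1-/- (Wilson interval 15.9 to 16.0), 11.7% in TzfpGTi/GTi (11.7 to 11.7), 11.2% in WT replicate 1 (11.2 to 11.3) and 10.8% in WT replicate 2 (10.7 to 10.8). It ranked 1 among the 21 chromosomes in both mutants and 3 in both WT libraries. Without the most abundant cluster the shares were 3.75% in Alkbh1-/-, 2.98% in TzfpGTi/GTi, 3.06% in WT replicate 1 and 2.91% in WT replicate 2, and the rank lay between 11 and 13. These sums still hold piC_1397 and piC_2849, which share nearly all their reads and helped to choose the chromosome. With these left out too, the shares were 3.19% in Alkbh1-/-, 2.895% in TzfpGTi/GTi, 2.97% in WT replicate 1 and 2.86% in WT replicate 2. No test of these shares was made.

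Within the chromosome, reads of piC clusters made up 4.02% in Alkbh1-/-, 1.66% in TzfpGTi/GTi, 1.79% in WT replicate 1 and 1.37% in WT replicate 2. Most of the Alkbh1-/- share is the signal of piC_1397 and piC_2849, entered once for each. Without this pair the piC share was 0.912% in Alkbh1-/-, 0.997% in TzfpGTi/GTi, 0.998% in WT replicate 1 and 0.982% in WT replicate 2. The Alkbh1-/- share was then the lowest of the 4, but its denominator includes the most abundant cluster, which was highest in Alkbh1-/-. A lower share thus does not show lower levels. The median fitted log2 fold in Alkbh1-/- of the 116 tested piC clusters, the pair included, was 0.33. The share of 2303 was 13.7% in Alkbh1-/-, 18.4% in TzfpGTi/GTi, 20.2% in WT replicate 1 and 20.1% in WT replicate 2. Its denominator includes the most abundant cluster, and the levels of 2303 itself, given above, lay much closer together than these shares.

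The WT pair sets the replicate error. Over the 129 tested clusters the log2 ratio of WT replicate 2 to WT replicate 1 had an SD of 0.56 (0.67 over all 2209 tested in the series), and 93.8% lay within 2-fold (88.8% over all). The 8 that did not include piC_1389, with 28.8 reads in WT replicate 1 and 6.25 in WT replicate 2, and piC_2812, with 38.9 and 150 reads. These were picked after their values were seen. Against WT replicates 1 and 2, the SD was 0.88 and 0.93 for Alkbh1-/- and 0.56 and 0.50 for TzfpGTi/GTi. Over all 2209 these SDs were 0.78 and 0.88 for Alkbh1-/- and 0.65 and 0.58 for TzfpGTi/GTi. These ratios carry a pseudocount of 0.1 scaled RPM, which understates the change of low clusters. By this measure TzfpGTi/GTi thus lay about as far from WT as the WT libraries from each other, and Alkbh1-/- farther. The SD of Alkbh1-/- on the chromosome includes piC_1397 and piC_2849, whose values helped to choose it, and was not computed without them. The Alkbh1-/- library also had the fewest cluster reads (7305946), and the effect of depth on these SDs was not tested.

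In the comparison of Alkbh1-/- with WT, clusters piC_1397 and piC_2849 had values several-fold higher in Alkbh1-/-. Clusters piC_1397 (chr17:39979942-39985771, 5830 bp) and piC_2849 (chr17:39954489-39985766, 31278 bp) share 5825 bases, and the 25453 bases of piC_2849 that lie before piC_1397 added 1 read in WT replicate 2 and none in the other libraries. They are therefore 1 signal. piC_1397 had 18280 reads in Alkbh1-/-, 5816 in TzfpGTi/GTi, 4586 in WT replicate 1 and 3264 in WT replicate 2.

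After scaling, piC_1397 had 2368 scaled RPM in Alkbh1-/-, 396 in TzfpGTi/GTi, 431 in WT replicate 1 and 233 in WT replicate 2. The Alkbh1-/- value stood apart, and TzfpGTi/GTi lay within the WT range. No mm9 annotation was used here, so it was not tested whether piC_1397 holds a copy of ribosomal RNA or of another abundant RNA, whose fragments would enter its value. The level in Alkbh1-/- exceeded WT replicate 1 5.49-fold (exact 95% counting interval 5.31 to 5.67) and WT replicate 2 10.15-fold (9.78 to 10.5), and the WT libraries themselves differed 1.85-fold. The fitted log2 fold was 2.83 ± 0.40 (SE, 1 mutant and 2 WT libraries). Per length piC_1397 had 406 scaled RPM per kb in Alkbh1-/-, 68.0 in TzfpGTi/GTi, 74.0 in WT replicate 1 and 40.01 in WT replicate 2. The numbered clusters on either side were nearly empty: 2268, which ends 88288 bp before piC_2849, had 5.5, 0.45, 1.5 and 0.533 reads in the same order of libraries, and 2269, which starts 837229 bp after piC_1397, had 0.5 reads in WT replicate 1 and none elsewhere.

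For the most abundant cluster the fitted log2 fold was 0.50 ± 0.25 (SE) in Alkbh1-/-, with 1.48-fold more scaled reads than WT replicate 1 and 1.36-fold more than WT replicate 2. The WT libraries differed 1.09-fold. Of the 129 clusters on the chromosome with 40 reads or more, 2 passed an adjusted p of 0.05 in edgeR's quasi-likelihood test (Benjamini-Hochberg over all 2209 clusters), both higher, against 0.272% of all clusters tested. They are piC_1397 and piC_2849, for which the chromosome was chosen, so nothing is read from this count. Leaving out the 3 clusters that the choice names, none of the other 126 passed in edgeR or in DESeq2's Wald test. The Wald test called 22 over all chromosomes. Of the 126, 19 had an unadjusted p under 0.05 in edgeR and a higher value, beside 7.61% of all clusters tested. A lower value was found for 7, beside 5.21% of all. The count of 2 became 0 with no scaling beyond totals, with a floor of 200 counts, with overlapping clusters counted once or with only the compared libraries. Over all chromosomes these settings called 0, 2, 0 and 0, in that order.

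Apart from these 3 clusters the smallest adjusted p on the chromosome was 0.139 (edgeR), so none of the following differences passed. The highest fold among these was piC_1349 (chr17:13181166-13199057), with 31.2 reads in Alkbh1-/-, 59.5 in TzfpGTi/GTi, 6.17 in WT replicate 1 and 20.5 in WT replicate 2. Both mutants were above both WT libraries, which differed 2.52-fold from each other. Its log2 fold in Alkbh1-/- was 1.95 ± 0.56 (SE; edgeR adjusted p = 0.241), or 6.96-fold over WT replicate 1 (counting interval 2.92 to 20.9) and 2.76-fold over WT replicate 2 (1.55 to 5.20).

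Cluster piC_2844 (chr17:34686230-34743547) had 30.6 scaled RPM in Alkbh1-/-, 22.8 in TzfpGTi/GTi, 12.04 in WT replicate 1 and 11.02 in WT replicate 2. Here the WT libraries lay close together and both mutants lay above them. Its log2 fold in Alkbh1-/- was 1.41 ± 0.31 (SE; edgeR adjusted p = 0.139). It overlaps piC_1390 and piC_1389, so some of these reads also enter their values. Cluster piC_1367 (chr17:25969384-26037321) had 32.6 scaled RPM in Alkbh1-/-, 18.1 in TzfpGTi/GTi, 14.6 in WT replicate 1 and 13.0 in WT replicate 2, a log2 fold of 1.25 ± 0.31 in Alkbh1-/- (edgeR adjusted p = 0.185). The remaining clusters of the highest 8 were piC_1379 (log2 fold 1.295), piC_2847 (1.24) and piC_1360 (1.23). These 3 lie between chr17:23877810 and chr17:35138935. Of the 3 only piC_1360 had a lower value in TzfpGTi/GTi (2.05 scaled RPM) than in both WT libraries (3.30 and 2.36). With fewer reads (mean 14.7), 2242 had a log2 fold of 1.27 in Alkbh1-/-.

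At the other end, piC_1416 (chr17:79277263-79295155) had 14.4 scaled RPM in Alkbh1-/-, 27.8 in TzfpGTi/GTi, 30.8 in WT replicate 1 and 43.7 in WT replicate 2. Alkbh1-/- was the lowest library, 2.14-fold below WT replicate 1 and 3.03-fold below WT replicate 2, with a log2 fold of -1.37 ± 0.39 (SE; edgeR adjusted p = 0.241). Cluster 2243, whose levels stand above beside those of 2244, had a log2 fold of -1.33 ± 0.39 (edgeR adjusted p = 0.241). The abundant 2244 beside it had a log2 fold of -0.53 ± 0.36. Close by on the left, piC_1356 had a log2 fold of -1.33 and piC_1355 of -1.16.

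The lowest 8 were picked among clusters with a mean of 20 reads or more, below both WT libraries by more than the WT difference. The rest of these 8 lay to the right of piC_1397: piC_1412 (log2 fold -1.08), piC_1422 (-0.78), piC_1402 (-0.59) and piC_2850 (-0.58). Low clusters with fewer reads also lay to its left, among them piC_2807 (-1.31, mean 18 reads) and piC_1354 (-1.18, mean 10.5 reads). Cluster piC_1412, whose start lies 465450 bp to the right of 2303, had 42.4 scaled RPM in Alkbh1-/-, 91.6 in TzfpGTi/GTi, 83.3 in WT replicate 1 and 96.1 in WT replicate 2. Alkbh1-/- was below the other 3 libraries, which differed little. Cluster piC_1423 had no read in Alkbh1-/-, 20 in TzfpGTi/GTi, 8 in WT replicate 1 and 12 in WT replicate 2. With Alkbh1-/- set at a floor of 3 reads in its library, that is at least 1.94-fold lower than WT replicate 1 and at least 2.21-fold lower than WT replicate 2.

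**Figure D3:**
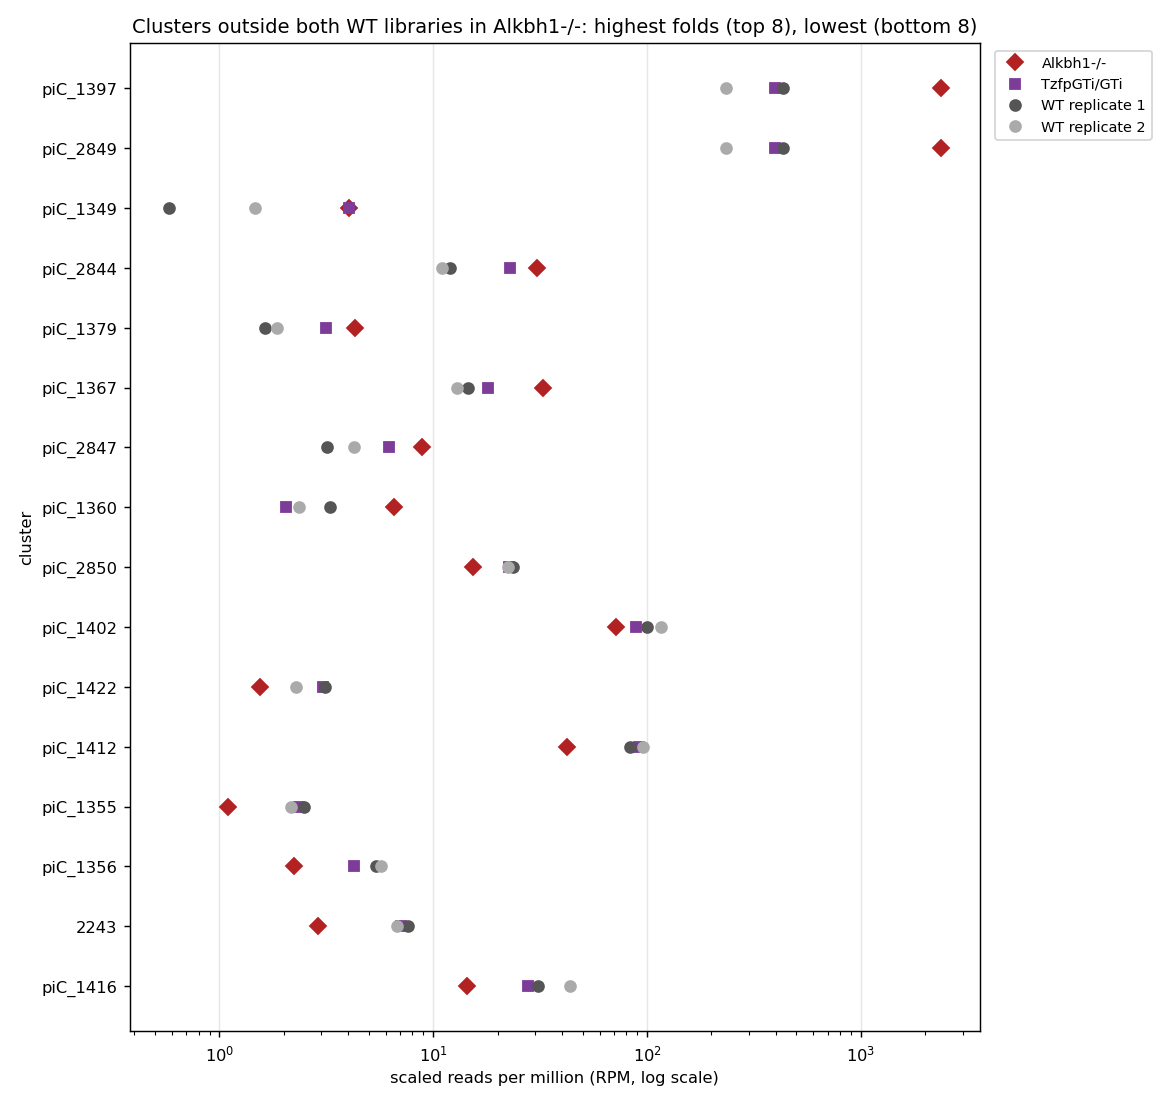
Scaled RPM (log axis), with 1 point per library, for the 8 clusters with the highest and the 8 with the lowest fold in Alkbh1-/- among those outside both WT libraries by more than the WT difference, at a mean of 20 reads or more. In the top 8 TzfpGTi/GTi lies between WT and Alkbh1-/- for piC_2844, piC_1379, piC_1367 and piC_2847. In the bottom 8 it lies nearer the WT points than Alkbh1-/- does, but below both of them for piC_1356, piC_1402 and piC_1416.

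Taken over the chromosome, the clusters were on balance higher in Alkbh1-/-. The median fitted log2 fold of the 129 tested was 0.32, beside 0.0038 for all 2209, and chromosome 17 ranked 1 among the 21 chromosomes by this median; chromosome 10 (0.22) and chromosome X (0.19, 15 clusters) followed. With overlapping clusters counted once the median was 0.30 and the rank again 1. By class the median was 0.33 for the 116 piC clusters, beside 0.020 for piC clusters of all chromosomes, and 0.26 for the 13 numbered clusters, beside -0.092 for numbered clusters of all chromosomes.

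Of the 129 clusters, 76 (58.9%) lay above both WT libraries in Alkbh1-/-, beside 38.2% of all clusters tested, and 31 (24.0%) lay below both, beside 35.9% of all. The 76 and the medians of the chromosome include the clusters that the choice names, and these medians were not computed without them. All of the clusters that the choice names lie between 20 and 40 Mb, where the median fitted log2 fold was 0.50 with them and 0.49 without. Counts without them are given below for this stretch, beside those elsewhere on the chromosome. With no scaling beyond totals the median of all clusters itself moved to 0.11, and that of chromosome 17 to 0.43. The median was 0.29 against WT replicate 1 and 0.41 against WT replicate 2. Clusters of one chromosome are not replicates, and no test of these medians was made.

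Along the chromosome, in windows of 10 Mb by cluster midpoint, the medians between 20 and 50 Mb were higher than those of the other windows with 5 or more tested clusters. The median fitted log2 fold in Alkbh1-/- was -0.14 between 10 and 20 Mb (10 clusters tested), 0.50 between 20 and 30 Mb (42), 0.54 between 30 and 40 Mb (27) and 0.35 between 40 and 50 Mb (14). Farther right it was 0.0073 between 50 and 60 Mb (12), -0.13 between 60 and 70 Mb (5), -0.065 between 70 and 80 Mb (5) and -0.36 between 80 and 90 Mb (10). Against WT replicates 1 and 2 taken singly, the median was -0.29 and 0.29 between 50 and 60 Mb. It was 0.29 and 0.28 between 70 and 80 Mb, the other sign from the fitted median, and 0.31 and 0.43 between 40 and 50 Mb. The outermost windows held 2 tested clusters each, with a median of -0.049 between 0 and 10 Mb and of 0.65, the highest of all windows, between 90 and 100 Mb. Windows with under 20 clusters rest on few values.

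The stretch from 20 to 40 Mb, chosen after these medians were seen, held 69 of the 129 tested clusters. There 50 (72.5%) lay above both WT libraries in Alkbh1-/- and 8 (11.6%) below both, against 26 (43.3%) and 23 (38.3%) of the 60 clusters elsewhere on the chromosome. Without the most abundant cluster, piC_1397 and piC_2849 it was 47 (71.2%) above and 8 below of 66. The median log2 ratio of Alkbh1-/- in this stretch was 0.50 to WT replicate 1 and 0.71 to WT replicate 2, while the WT libraries had a median ratio of -0.018 to each other. Elsewhere it was -0.034 and 0.092. With overlaps counted once the 55 clusters left had medians of 0.45 and 0.71.

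**Figure D4:**
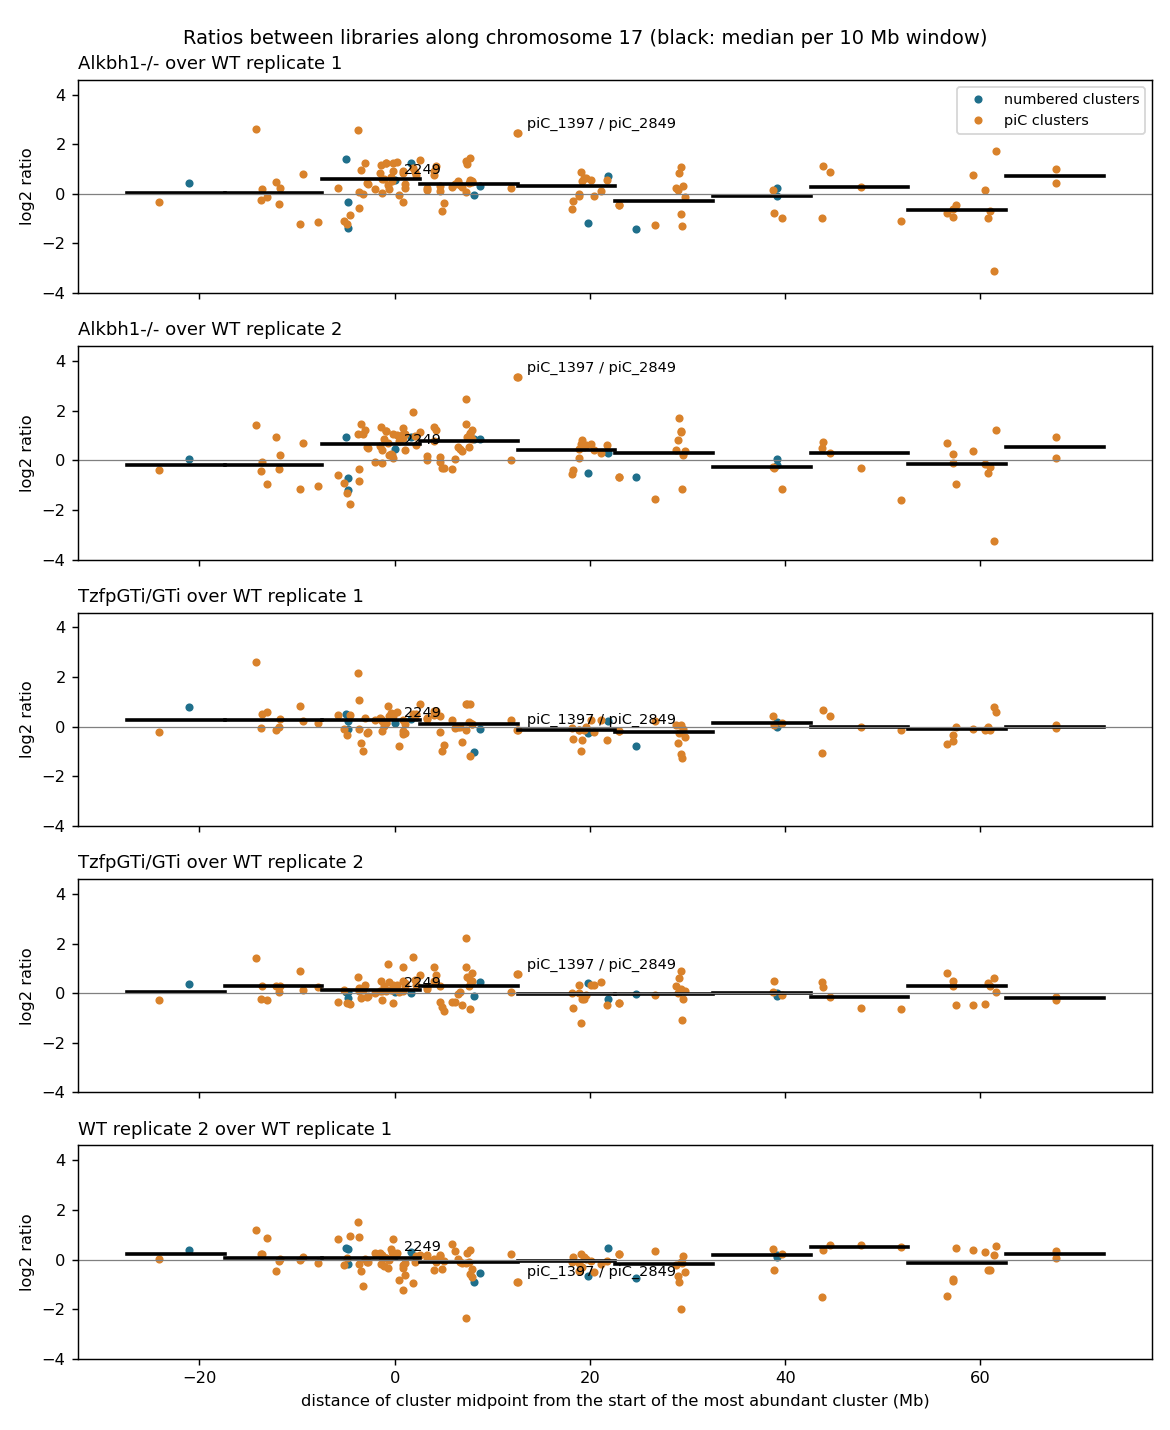
Log2 ratios between libraries of the 129 tested clusters (pseudocount 0.1 scaled RPM), by distance of the cluster midpoint from the start of the most abundant cluster (Mb), with black lines for the median of each 10 Mb window. In the panels of Alkbh1-/- the medians around the most abundant cluster lie above 0 against both WT libraries (0.58 and 0.66 in the window that holds it); in the panels of TzfpGTi/GTi and of the WT pair they lie nearer 0.

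In the comparison of TzfpGTi/GTi with WT the abundant clusters lay closer to WT. The most abundant cluster exceeded WT replicate 1 1.12-fold and WT replicate 2 1.02-fold, a log2 fold of 0.09 ± 0.25 (SE), and piC_1397 had a log2 fold of 0.25 ± 0.42. No cluster of the chromosome passed in edgeR's quasi-likelihood test (0 of 129, beside 0.0905% of all clusters tested, 0.0453% higher and 0.0453% lower). An unadjusted p under 0.05 in edgeR was found for 2 (1.55%), beside 1.86% of all clusters tested, and DESeq2's Wald test called 0 (2 over all chromosomes). The smallest adjusted p without the 3 clusters above was 1.00 (edgeR). A miss of the threshold with 1 mutant library does not show that values did not differ.

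The 2 clusters with an unadjusted p under 0.05 were piC_1349 and piC_2844, whose values are given above. In TzfpGTi/GTi the log2 fold of piC_1349 was 1.98 ± 0.53 (SE), or 6.99-fold over WT replicate 1 (counting interval 3.14 to 20.5) and 2.77-fold over WT replicate 2 (1.70 to 5.01). For piC_2844 it was 0.99 ± 0.31, or 1.90-fold over WT replicate 1 (1.54 to 2.34) and 2.07-fold over WT replicate 2 (1.71 to 2.53). The comparisons of the mutants with WT share the WT libraries, so the values of a cluster in both are given side by side only. In Alkbh1-/- the log2 folds were 1.95 for piC_1349 and 1.41 for piC_2844.

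Other clusters above WT in TzfpGTi/GTi had smaller folds than piC_1349. Cluster piC_1370 (chr17:26633655-26687830) had 2.59 scaled RPM in TzfpGTi/GTi, 1.85 in Alkbh1-/-, 1.41 in WT replicate 1 and 1.09 in WT replicate 2, a log2 fold of 1.07 ± 0.50 (SE). TzfpGTi/GTi was the highest of the 4 libraries, though on 38 reads the counting interval against WT replicate 1 reached from 0.986 to 3.59. Clusters piC_1379 (0.85), piC_1390 (0.77), piC_2847 (0.73), piC_2836 (0.71) and piC_2832 (0.50) followed.

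The lowest in TzfpGTi/GTi picked by the same rule were piC_1384 (log2 fold -0.78 ± 0.51), piC_1388 (-0.58), piC_2851 (-0.54) and piC_2859 (-0.50). Over all tested clusters of the chromosome, also those with fewer reads, the lowest log2 fold in TzfpGTi/GTi was -1.29. Cluster piC_1384 had 1.295 scaled RPM in TzfpGTi/GTi, 1.73 in Alkbh1-/-, 2.26 in WT replicate 1 and 2.19 in WT replicate 2, with both mutants below both WT libraries. Then came piC_1356 (-0.37), piC_1382 (-0.31), piC_1344 (-0.25) and piC_1368 (-0.22).

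The median log2 fold of the 129 clusters in TzfpGTi/GTi was 0.07, beside -0.0049 for all 2209, and the chromosome ranked 3 of 21. By library 54 clusters (41.9%) lay above both WT libraries, beside 30.3% of all, and 33 (25.6%) below both, beside 29.5%. Between 20 and 40 Mb 38 of 69 (55.1%) lay above both and 13 (18.8%) below both, against 16 (26.7%) and 20 (33.3%) of the 60 elsewhere. Without the clusters that the choice names, 37 of 66 (56.1%) lay above both and 13 (19.7%) below both. The stretch was chosen from the Alkbh1-/- medians, and both mutants are set against the same WT libraries. These counts are therefore no separate support for it. The median log2 ratio in that stretch was 0.22 to WT replicate 1 and 0.13 to WT replicate 2.

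The mutants were also set against each other, which tests whether a cluster differs between them. No cluster of chromosome 17 passed in edgeR's quasi-likelihood test (0 of 129, beside 0.0% of all clusters tested). An unadjusted p under 0.05 in this test was found for 12 (9.3%), beside 8.47% of all clusters tested. Of these 12, 8 (6.2% of the 129) were higher in Alkbh1-/-, beside 5.02% of all. The other 4 (3.1% of the 129) were lower, beside 3.44% of all. DESeq2's Wald test called 2 (17 over all chromosomes). They are piC_1397 and piC_2849, chosen for their values in Alkbh1-/-, so nothing is read from this count. For piC_1397 the log2 difference of Alkbh1-/- over TzfpGTi/GTi was 2.58, and for the most abundant cluster it was 0.41. Outside the 3 clusters above, piC_1360 had a log2 difference of 1.69, with 6.59 scaled RPM in Alkbh1-/- and 2.05 in TzfpGTi/GTi. For 2243 it was -1.31, with 2.89 in Alkbh1-/- and 7.10 in TzfpGTi/GTi. Both were named for their folds against WT, not for this difference. With fewer reads (mean 18), piC_2807 had a larger fall, -2.22, with 0.518 in Alkbh1-/- and 2.45 in TzfpGTi/GTi. The smallest adjusted p outside the 3 was 0.372 (edgeR).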

How the data were processed

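The authors deposited, for each small RNA library, a list of clusters with mm9 position, name and an expected count (an estimated read count that need not be whole, not scaled to depth). RNA under 200 nt (50 ng, 15 PCR cycles) was read as 36 bp single ends, per the labels. Per the submitters' processing notes, which assign no roles, CASAVA 1.3, Novoalign, TopHat, bedtools and mm9 were used; the sources used here do not say how clusters were chosen or reads divided. Starts are printed counted from 1. The mRNA libraries were not used here.

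Expected counts were rounded, clusters with a sum of 40 or more over the 4 libraries kept (2209 of 4944), and all were fitted together in edgeR 4.0.16 (R 4.3.3) with TMM scaling and 1 coefficient per genotype, with Benjamini-Hochberg adjustment over all clusters at 0.05. Only the WT pair gave residual degrees of freedom (1; biological coefficient of variation 0.257, median prior degrees of freedom 6.81), and the fit assumed that each mutant library varies like WT. SE is the log2 fold over the root of the F statistic. The test was tried on simulated counts that gave all libraries the same spread. That trial could not check whether a mutant library varies like WT. DESeq2 1.42.0, Python 3.11.15, pandas 2.3.3, scipy 1.17.1 and matplotlib 3.10.9 were also used. Alternatives were other scalings, filters and tests, overlaps counted once, fewer libraries, and other sets of clusters for the shares.

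Members and tests were chosen with earlier results of these data known. Named clusters are the 3 that the choice names, the 10 with most WT reads, those called, up to 8 per direction and mutant with the largest fold among those with a mean of 20 or more reads and farther from the nearer WT library than the WT libraries from each other, those overlapping them, and the neighbours of the first 3; any other was picked after its values were seen.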

Additional observations from a re-analysis of the deposited data

How the results depend on the processing

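The clusters called (piC_1397 and piC_2849) are ones that the choice of the chromosome names, so their calls and the settings that keep them are a description and support nothing. In Alkbh1-/- over WT the number was 2 with DESeq2 size factors, without the count filter and by DESeq2's Wald test. Over all chromosomes these called 14, 41 and 22, in that order. It was 0 with no scaling beyond totals, with a floor of 200 counts, with overlapping clusters counted once and with only the compared libraries; the cause was not tested. In Alkbh1-/- over TzfpGTi/GTi the number was 2 without the filter (33 over all chromosomes) and by DESeq2's Wald test (17). It was 0 in the 4 other alternatives run, which also called 0 over all chromosomes. For TzfpGTi/GTi over WT it was 0 in all 7, which called between 0 and 3 clusters over all chromosomes. Leaving out a WT library leaves no residual degrees of freedom, so that alternative gave folds only: piC_1397 lay between 2.45 and 3.34 on the log2 scale over all settings in Alkbh1-/-, and between -0.12 and 0.77 in TzfpGTi/GTi. For piC_1349 the log2 fold in TzfpGTi/GTi ranged from 1.51 to 2.83, the highest without WT replicate 2.

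The chromosome's share of cluster reads in Alkbh1-/-, TzfpGTi/GTi, WT replicate 1 and WT replicate 2 was 16.6%, 12.2%, 11.7% and 11.3% with overlaps counted once. It was 6.46%, 5.30%, 5.56% and 5.20% without the 10 most abundant clusters, 3.75%, 2.98%, 3.06% and 2.91% without the most abundant cluster, and 16.5%, 12.3%, 11.8% and 11.4% over numbered clusters only. Without the 3 clusters that the choice names, an alternative chosen after seeing the data, it was 3.19%, 2.895%, 2.97% and 2.86%.

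Of 49 named folds, 5 changed sign in at least 1 setting, all in TzfpGTi/GTi. With no scaling 2244 had 0.028 and 2275 had 0.012 on the log2 scale, and with overlaps counted once 0.028 and 0.011. Without WT replicate 2, 2244 had 0.22, 2275 had 0.22, and piC_1397 and piC_2849 each had -0.12. Without WT replicate 1, 2302 had -0.012. No paired analysis was possible because each mutant has 1 library and shares no more than 1 replicate number with WT. With 1 library per mutant, the genotype and the preparation cannot be told apart.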
